A study of Mus musculus with 18 samples.

Results

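GC1spg cells in 4 groups were profiled by poly(A) RNA sequencing, and the comparison described here is the one between TGR5 siRNA (siTGR5) and GFP siRNA (siGFP) in cells exposed to busulfan (Bu). It rests on 8 of the 18 libraries, namely siGFP Bu replicates 1 to 4 and siTGR5 Bu replicates 1 to 4, chosen by their labels alone, and it was made over the 13971 of 31643 annotated genes that passed a filter on low counts. All 8 libraries received Bu, so the siGFP Bu cells served as the control and the only labelled difference was the siRNA. The other 10 libraries, 5 with siGFP and 5 with siTGR5, received the vehicle DMSO and are used below only to ask whether the siRNA effect was like that under Bu. GC1spg is a mouse line derived from type B spermatogonia that were immortalized with a viral large T antigen. The study's methods give 200 µM Bu for 24 h for this line and do not describe the siRNAs, whose dose, timing and sequence are not given in the sources used here.

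TGR5, encoded by Gpbar1, is a membrane receptor for bile acids. It couples to the stimulatory G protein, so that its ligands raise cyclic AMP, activate protein kinase A and the cyclic AMP-regulated exchange factor EPAC, and let CREB act on genes with cyclic AMP response elements. Bu is a bifunctional alkylating agent that crosslinks DNA and kills spermatogonia, and a small interfering RNA (siRNA) directs cleavage of a matching mRNA but may also lower other transcripts that pair with its seed.

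Total counts ran from 27387541 to 38587189 in siGFP Bu and from 24745523 to 38257393 in siTGR5 Bu. Levels are given as CPM, counts scaled to a common library total after trimmed-mean normalization, effects as log2 of siTGR5 over siGFP with their standard error (SE), and a gene was called at an edgeR quasi-likelihood adjusted p under 0.05. Germ cell markers went partly against the label of the line. Ddx4, Dazl, Zbtb16, Kit and Stra8 had at most 5 counts in any of the 8 libraries. The spermatogonial receptor Gfra1 stood at 17.7 to 21.9 CPM, Id4 at 4.77 to 6.05 CPM and Etv5 at 1.73 to 2.74 CPM. Markers of Sertoli cells in the testis were also mixed. Wt1 stood at 191 to 232 CPM and Gata4 at 20.9 to 25.3 CPM, but Sox9 had 84 to 137 counts and Amh 3 to 14 counts. These levels do not decide which testis cell type the line resembles. Among the 8 libraries 4, siGFP Bu 2 and 4 and siTGR5 Bu 1 and 3, carried transcripts of rod photoreceptors, with summed levels of 8.74 to 45.0 CPM over 24 markers against 2.44 to 3.31 CPM in the others. These are 2 libraries on each side, and calls of named genes under Bu that were lost without them, and list counts under Bu that moved by more than 1.5 times, are given beside the result. Nothing in the labels says whether replicates were separate cultures, so p-values measure the spread between these libraries, which may be technical. In such bulk libraries fewer cells of a kind and less RNA per cell cannot be told apart.

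The target itself was barely detected and did not differ measurably under Bu. Gpbar1 (ENSMUSG00000064272, chr1:74278550-74279624, mm10) had 8, 17, 17 and 15 counts in the siGFP Bu libraries and 15, 8, 10 and 11 counts in the siTGR5 Bu libraries. These are 0.210, 0.565, 0.623 and 0.462 CPM against 0.388, 0.288, 0.404 and 0.314 CPM, and the ranges overlapped. The log2 change was -0.38 (SE 0.34, edgeR adjusted p = 0.425), and its 95% interval ran from -1.09 to 0.34, that is from 46.9% to 127% of the siGFP level. A fall to less than 46.9% of the control lies outside this interval, and a smaller one was not detectable at this depth. In DMSO the same comparison gave -0.99 (SE 0.28, edgeR adjusted p = 0.0135), with 0.698 ± 0.178 CPM in siGFP and 0.354 ± 0.146 CPM in siTGR5 (SD, n = 5), and the difference between the agents was not called, at 0.61 (SE 0.47, edgeR adjusted p = 0.625). Of 6 other tested genes within 100 kb of Gpbar1, edgeR called 0 under Bu, with 2 at an unadjusted p under 0.05 and 2 called by DESeq2. Over all tested genes edgeR called 30.3%, and 6 genes are too few to say whether this neighbourhood differs. The siTGR5 groups are therefore named by their label, and the mRNA gives no measured depletion of the receptor under Bu.

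**Figure D1:**
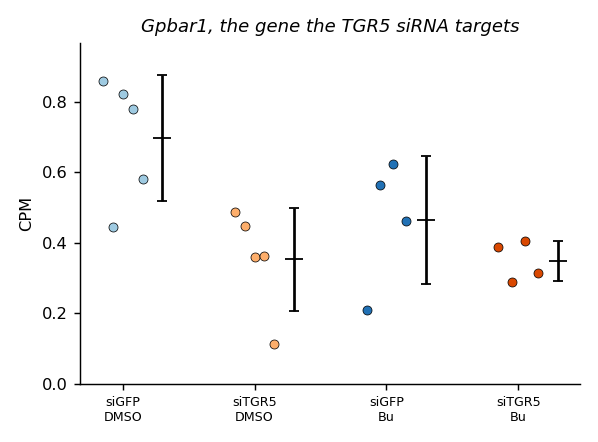
Gpbar1 level in CPM (y axis) in each of the 18 libraries, grouped by siRNA and agent (x axis). Points are libraries and the bar beside each group is the mean ± SD (n = 5 in DMSO, n = 4 under Bu). The Bu groups overlap, at 0.210 to 0.623 CPM with siGFP and 0.288 to 0.404 CPM with siTGR5.

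The siRNAs nevertheless separated the Bu-treated cells over much of the transcriptome. Of the tested genes, 4231 (30.3%) were called, 1931 (13.8%) higher and 2300 (16.5%) lower with siTGR5. Most changes were small, with a median size of 0.27 log2 units among called genes, and only 145 called genes changed more than 2-fold, 66 of them upward and 79 downward. The groups did not overlap in 3483 of the 4231 called genes, so a lack of overlap in a named gene is no separate support. The first principal component took 49.3% of the variance and placed the siGFP Bu libraries at -17.8 to -9.17 and the siTGR5 Bu libraries at 9.94 to 17.0, with no overlap. Without the 4 photoreceptor-bearing libraries, 2566 genes were called, 2334 of the original calls among them, and every one of the 4229 called genes that could be retested kept its direction.

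The genes that fell with the smallest p-values included ones of the cytoskeleton, chromatin and cell surface. Acta2 (ENSMUSG00000035783, chr19:34241090-34255336), smooth muscle actin, was measured at 23.6, 24.3, 24.2 and 23.2 CPM with siGFP and 8.84, 8.61, 8.24 and 8.71 CPM with siTGR5. Every siTGR5 library was below every siGFP library, the mean fell to 36.1% of the control, and the log2 change was -1.47 (SE 0.06, edgeR adjusted p = 8.66e-10). Hmga2 (ENSMUSG00000056758, chr10:120361275-120476469), an architectural chromatin protein, was at 44.4, 42.9, 41.2 and 44.8 CPM and 20.9, 19.6, 19.3 and 20.1 CPM. Its groups did not overlap either, and it changed by -1.13 (SE 0.05, edgeR adjusted p = 3.47e-09). Ank, a transporter of pyrophosphate and ATP to the outside of the cell, was at 483, 487, 457 and 440.4 CPM and then 252, 218, 226 and 212 CPM, a change of -1.05 (SE 0.05, edgeR adjusted p = 1.82e-08). Ly6a, the GPI-anchored antigen Sca-1, was at 38.6, 44.1, 37.4 and 35.0 CPM and then 14.9 to 17.9 CPM, a change of -1.29 (SE 0.08, edgeR adjusted p = 6.01e-08). For both Ank and Ly6a the lowest siGFP library, replicate 4, was far above the highest siTGR5 library, replicate 1. Among the other genes with the smallest p-values, Gspt1, which encodes the translation release factor eRF3, changed by -0.65, Tspan14 by -0.81, the transcription cofactor Eya4 by -0.86, Inpp5a, which degrades inositol trisphosphate, by -0.64, Atxn7l3b by -0.64 and Cd24a by -0.59, with edgeR adjusted p-values from 1.02e-07 to 1.69e-07.

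The genes that rose with the smallest p-values encode secreted, matrix and membrane proteins among others. Rhbdl3, a rhomboid-like membrane protein, was at 75.0, 74.1, 80.1 and 75.3 CPM with siGFP and 129, 123, 127 and 124 CPM with siTGR5. The groups stood well apart and the change was 0.72 (SE 0.04, edgeR adjusted p = 5.32e-08). Fgf18, a secreted fibroblast growth factor, went from 45.4, 44.6, 47.9 and 47.9 CPM to 80.8, 88.5, 79.5 and 77.4 CPM, a change of 0.80 (SE 0.05, edgeR adjusted p = 1.02e-07). Ermp1, a peptidase of the endoplasmic reticulum, went from 62.4, 54.4, 63.3 and 59.7 CPM to 99.3, 111, 111 and 106 CPM, a change of 0.82 (SE 0.05, edgeR adjusted p = 1.54e-07). Col8a2, a short-chain collagen, went from 8.07, 7.57, 7.81 and 8.82 CPM to 17.9, 15.5, 16.5 and 17.1 CPM, a change of 1.05 (SE 0.07, edgeR adjusted p = 1.98e-07). In each of these the lowest siTGR5 library exceeded the highest siGFP library. Lats2, a kinase of the Hippo pathway, rose by 0.64, the proton pump subunit gene Atp6v0e2 by 0.68, the organic anion transporter-like Slco5a1 by 1.10, Rnf112 by 0.91 and the alarmin Il33 by 1.20, at edgeR adjusted p-values from 1.93e-07 to 8.32e-07.

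**Figure D2:**
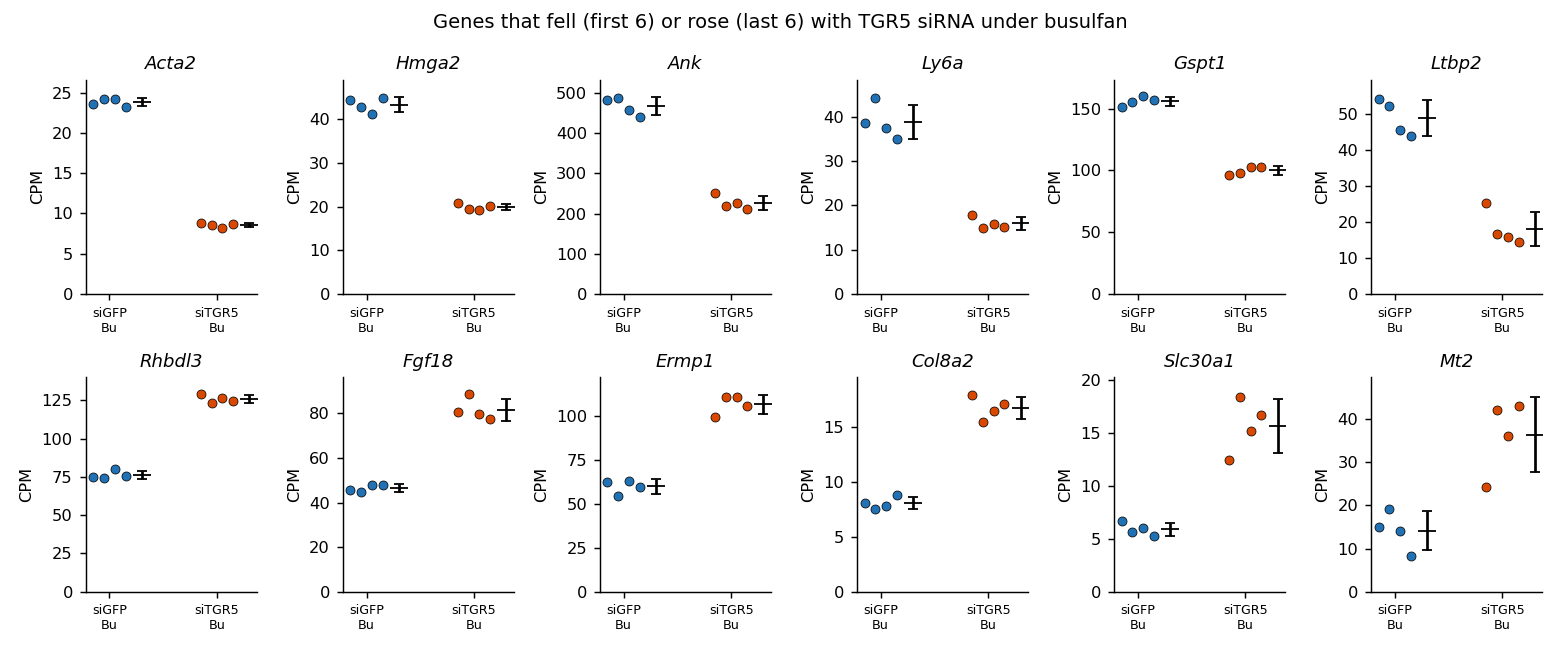
Levels in CPM (y axis) of 12 genes in the 8 Bu libraries (x axis, siRNA group). Points are libraries, bars the mean ± SD (n = 4 each), and every axis starts at 0. In all 12 panels no siTGR5 library lies within the range of the siGFP libraries. The genes were picked by small p-values, by large changes without overlap or after their values were seen, so the separation follows from the choice. In Acta2 the libraries lie at 23.2 to 24.3 CPM with siGFP and 8.24 to 8.84 CPM with siTGR5.

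Among called genes of at least 1 CPM whose groups did not overlap, the largest falls were mostly in genes of low level. Ltbp2, which binds latent TGF-beta complexes in the matrix, was at 54.2, 52.2, 45.6 and 43.9 CPM and then 25.3, 16.8, 15.8 and 14.6 CPM, a change of -1.43 (SE 0.13, edgeR adjusted p = 2.42e-06). The siTGR5 replicate 1 library kept the highest Ltbp2 of its group. Npy4r, a pancreatic polypeptide receptor, changed by -1.59, the acyl-CoA synthetase Acsbg1 by -1.48, the calcium-binding S100a7a by -1.36, the fibril-associated Col14a1 by -1.37 and the G protein subunit Gna14 by -1.35, and all 5 had lower group means than Ltbp2. Upward, Lyz2, lysozyme M, had 15, 11, 5 and 13 counts with siGFP and 39, 65, 51 and 65 counts with siTGR5. Lyz2 is a macrophage marker, and the common leukocyte antigen Ptprc had at most 2 counts and Csf1r at most 4 counts in any of the 8 libraries. The other macrophage and blood markers tested moved the other way, Cd14 by -0.41 (adjusted p = 0.00105) and Cd68 by -0.32 (adjusted p = 0.00207), both by edgeR. Nos1, neuronal nitric oxide synthase, was at 0.522 ± 0.221 CPM with siGFP and 1.59 ± 0.431 CPM with siTGR5 (SD, n = 4). Both Lyz2 and Nos1 reached the required mean of 1 CPM only through the siTGR5 libraries, so their values are a description without a test.

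Much of the same effect was present without Bu. The DMSO comparison shares no library with the Bu comparison, and it called 4039 of 14292 genes (28.3%), 1978 (13.8%) higher and 2061 (14.4%) lower. Among 13884 genes tested in both, 2480 were called in both, 2456 in the same direction and 24 in opposite directions. Those 2456 genes are 58.2% of the Bu calls and 61.3% of the DMSO calls in that set. Across genes the log2 effects correlated with Pearson's r = 0.68 and Spearman's rho = 0.68, a description over genes, which are not independent replicates. Acta2 changed by -1.24 in DMSO, Hmga2 by -0.83, Gspt1 by -0.65, Ermp1 by 0.78 and Atp6v0e2 by 0.61. The genes called in both agents with the smallest p-values also held Prg4, the joint lubricant lubricin, at -0.99 under Bu and -0.82 in DMSO, the thrombin receptor F2r at -0.57 and -0.54, the protein kinase A anchor Akap5 at 0.92 and 0.68, and the secreted ligand Wnt9a at 0.59 and 0.54. The effect of the siRNA on these genes was thus measured with and without Bu.

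**Figure D3:**
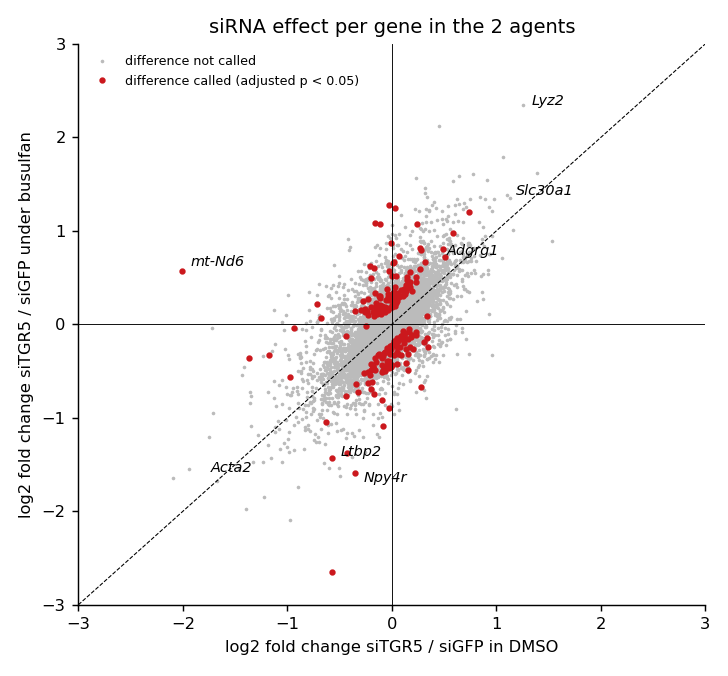
Log2 fold change of siTGR5 over siGFP in DMSO (x axis) and under Bu (y axis) for the 13884 genes tested in both (points). Red points are the 203 genes (1.37% of 14783 tested) whose effect differed between the agents by edgeR, and the dashed line marks equal effects. The effects correlated across genes (Pearson's r = 0.68), which does not measure closeness to that line. mt-Nd6 sits far from the line, at -2.01 in DMSO and 0.57 under Bu.

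Genes that handle bile acids and cyclic AMP moved in both directions. Of 13 tested bile acid genes, 2 were higher and 2 lower, close to the background shares of 13.8% and 16.5%. Vdr, the vitamin D receptor, which also binds the bile acid lithocholic acid, was at 33.3, 31.7, 32.5 and 31.2 CPM and then 51.8, 53.8, 47.7 and 46.1 CPM. The groups were separate, with a change of 0.62 (SE 0.06, edgeR adjusted p = 2.34e-06), and in DMSO it was 0.47. Rxra, the retinoid receptor that pairs with Vdr and with the bile acid receptor FXR, changed by -0.34 (SE 0.05, edgeR adjusted p = 9.93e-05). Nr1h4, which encodes FXR, changed by 0.28 (adjusted p = 0.0217), and the efflux pump Abcc3 by -0.23 (adjusted p = 0.012), both by edgeR. Both calls were lost without the photoreceptor-bearing libraries by edgeR, in a fit of 2 libraries a side whose log2 changes were no smaller (Nr1h4 0.39, adjusted p = 0.0535, and Abcc3 -0.24, adjusted p = 0.07), and that of Nr1h4 also without siGFP Bu replicate 3 (0.0624) or siTGR5 Bu replicate 4 (0.0843).

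In the cyclic AMP machinery, 6 of 32 tested genes were higher and 5 lower, near the 13.8% and 16.5% of all tested genes. The median log2 change was 0.02 beside -0.0038 over all tested genes. The members that rose included Adcy1 and Adcy3, 2 of the adenylyl cyclases, the enzymes that make cyclic AMP. Adcy1 was at 2.73, 2.39, 3.23 and 3.51 CPM and then 5.04, 4.72, 5.45 and 6.54 CPM, a change of 0.87 (SE 0.14, edgeR adjusted p = 0.000266). Adcy3 went from 1.79, 2.03, 1.69 and 1.79 CPM to 2.48, 2.34, 2.91 and 2.97 CPM, a change of 0.54 (SE 0.14, edgeR adjusted p = 0.00732), and was not called without the photoreceptor-bearing libraries (0.61, adjusted p = 0.0637). Rapgef3, which encodes EPAC, changed by 0.37 (SE 0.05, edgeR adjusted p = 0.000112). Of those that fell, Pde8a, a phosphodiesterase that breaks cyclic AMP down, changed by -0.49 (SE 0.05, edgeR adjusted p = 2.87e-06) and Pkia, an inhibitor of protein kinase A, by -0.32 (SE 0.05, edgeR adjusted p = 0.000269). Pde4b, a phosphodiesterase of another family, moved the other way at 0.52 (adjusted p = 0.000431) by edgeR. Without the photoreceptor-bearing libraries 3 members were called higher and 3 lower.

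CREB targets and immediate early genes were called often and split evenly, 11 higher and 10 lower of 35 tested. Over all tested genes 13.8% were higher and 16.5% lower. Jund, an AP-1 subunit, was at 156, 281, 219 and 247 CPM and then 121, 119.6, 100.1 and 78.9 CPM, a change of -1.11 (SE 0.15, edgeR adjusted p = 6.87e-05). Dusp4 and Dusp6, phosphatases that switch off ERK and are induced by it, changed by -0.67 (SE 0.05, edgeR adjusted p = 1.93e-07) and -0.29 (SE 0.04, edgeR adjusted p = 8.98e-05). Klf4 and Junb changed by -0.25 (adjusted p = 0.000873) and -0.34 (adjusted p = 0.00501) in the same downward direction, by edgeR. Against these, Atf3 rose by 0.46 (SE 0.06, edgeR adjusted p = 6.68e-05) and Egr1 by 0.48 (adjusted p = 0.000108). The orphan nuclear receptor Nr4a3, a classical cyclic AMP-induced gene named after its values were seen because it was the largest change of the list, had 3, 4, 3 and 6 counts with siGFP and 17, 13, 14 and 27 counts with siTGR5. It passed the filter on low counts only through the siTGR5 libraries, so these counts are a description without a test. The full cyclic AMP response element, TGACGTCA, which reads alike on both strands, occurred in the RefSeq promoter window (GRCm38.p6, 250 bases before to 50 after the start) of 3.45% of called higher genes, 3.35% of called lower genes and 3.32% of all 10150 tested genes matched by symbol. The match is a description of letters and not of binding.

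Genes of zinc handling were among the larger upward changes, and the group was picked after their values were seen. Slc30a1 (ENSMUSG00000037434, chr1:191906767-191913247), the exporter that carries zinc out across the plasma membrane, was at 6.70, 5.65, 6.01 and 5.24 CPM with siGFP and 12.4, 18.4, 15.2 and 16.6 CPM with siTGR5. The groups did not overlap, and the change was 1.39 (SE 0.12, edgeR adjusted p = 1.23e-06). Mt2 (ENSMUSG00000031762, chr8:94172664-94173568), a metallothionein that binds zinc and other metals, was at 8.26 to 19.3 CPM, lowest in replicate 4, and then 24.2, 42.1, 36.1 and 43.0 CPM. Its lowest siTGR5 library, replicate 1, remained above its highest siGFP library, and the change was 1.35 (SE 0.20, edgeR adjusted p = 0.000145). Its neighbour Mt1 (ENSMUSG00000031765, chr8:94179082-94180327) was at 92.9, 119, 104 and 69.4 CPM and then 139, 189, 168 and 163 CPM, a change of 0.77 (SE 0.12, edgeR adjusted p = 0.000304). The importer Slc39a10 went the other way, from 325 ± 22.2 CPM with siGFP to 197 ± 20.5 CPM with siTGR5 (SD, n = 4), a change of -0.73 (SE 0.07, edgeR adjusted p = 2.81e-06). Mtf1, the zinc-sensing factor that drives Mt1, Mt2 and Slc30a1, was not called, at 0.14 (SE 0.06, edgeR adjusted p = 0.0828), although it was called in the fit of all 18 libraries (0.0453) and without siGFP Bu replicate 3 (0.0491). Over the metallothioneins and both carrier families, 9 of 21 tested genes were called higher and 2 lower, beside 13.8% and 16.5% of all tested genes. Without siTGR5 Bu replicate 4 those called higher were 5. In DMSO the changes were 1.11 (adjusted p = 1.39e-06) for Slc30a1, 1.13 (adjusted p = 6.42e-05) for Mt2 and 0.41 (adjusted p = 0.00469) for Mt1, by edgeR.

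The sequences just before the RefSeq starts of these 3 genes are shown because Mtf1 acts through a short, searchable motif, the metal response element. They are the 250 bases before each start in GRCm38.p6, 5′ to 3′, and capitals mark every match to TGCACNC or TGCGCNC on either strand, where overlapping matches merge.
Mt1, chr8:94178839-94179088, plus strand: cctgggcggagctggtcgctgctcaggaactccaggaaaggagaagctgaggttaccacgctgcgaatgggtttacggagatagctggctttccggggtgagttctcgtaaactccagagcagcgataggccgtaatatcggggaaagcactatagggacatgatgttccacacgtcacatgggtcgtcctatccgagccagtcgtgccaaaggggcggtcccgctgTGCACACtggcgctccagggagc
Mt2, chr8:94172368-94172617, plus strand: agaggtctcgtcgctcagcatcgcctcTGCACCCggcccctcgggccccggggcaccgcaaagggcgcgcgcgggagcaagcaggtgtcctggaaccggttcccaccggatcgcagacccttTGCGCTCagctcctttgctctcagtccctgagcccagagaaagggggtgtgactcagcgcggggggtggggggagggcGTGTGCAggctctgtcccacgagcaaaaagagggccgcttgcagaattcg
Slc30a1, chr1:191906531-191906780, plus strand: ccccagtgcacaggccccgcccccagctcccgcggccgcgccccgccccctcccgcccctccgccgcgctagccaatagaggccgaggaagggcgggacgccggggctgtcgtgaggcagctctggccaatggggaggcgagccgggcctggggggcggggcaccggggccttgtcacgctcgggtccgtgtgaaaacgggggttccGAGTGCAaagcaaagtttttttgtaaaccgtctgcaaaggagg
Within these windows Mt2 held 3 matches, and Mt1 and Slc30a1 held 1 each, the latter on the minus strand and close to the start. The windows depend on the RefSeq start used, and matches beyond these 250 bases were not counted. The numbers therefore do not describe the whole promoters. At least 1 match was found in 30.8% of the same 250-base windows of all tested genes, in 30.3% of those called higher and in 29.9% of those called lower, and 3 or more in 2.18%, 1.52% and 2.44%. Holding the motif was thus as frequent among called genes as among all genes, and these letters say nothing of what drove the 3 genes here.

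**Figure D4:**
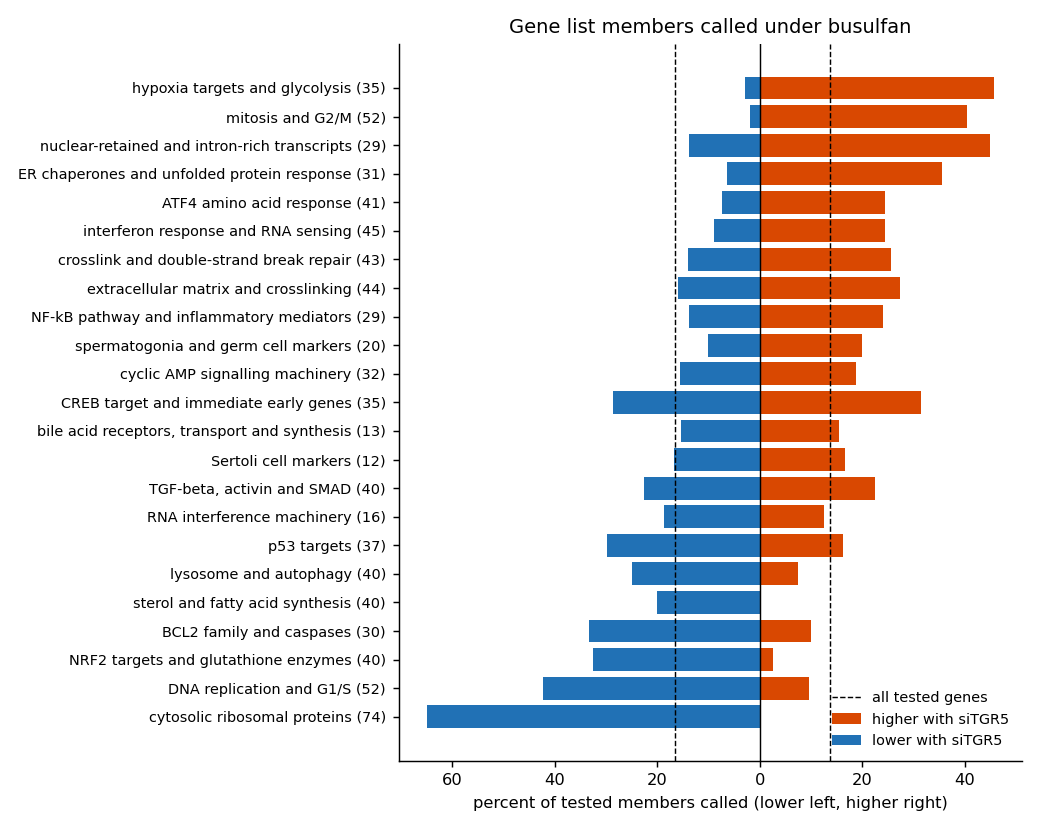
Percent of tested members called lower (blue, left) and higher (orange, right) with siTGR5 under Bu by edgeR for 23 gene lists, with the number of tested members in brackets. Dashed lines mark the shares of all tested genes, 16.5% lower and 13.8% higher. Ribosomal protein genes stand at the bottom with 48 of 74 lower, and hypoxia and glycolysis genes at the top with 16 of 35 higher.

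Among transcripts of the translation machinery, the called members were lower. Of 74 tested cytosolic ribosomal protein genes, 48 were lower and 0 higher at a median of -0.36, beside 16.5% and 13.8% of all tested genes, and in DMSO 41 of 75 were lower at -0.24. In the upward direction 1 member had an unadjusted p under 0.05, DESeq2 called 0, and edgeR called 3 without siGFP Bu replicate 4 and 2 without the photoreceptor-bearing libraries. Rps20, of the small subunit, was at 116, 137, 124 and 119 CPM and then 84.0, 79.7, 79.8 and 77.7 CPM, a change of -0.63 (SE 0.05, edgeR adjusted p = 9.20e-07). Rpl4 changed by -0.47 and Rps3 by -0.44, with no overlap between the groups in either. A score of the list, the mean centred log2 level of its members, ran from 0.07 to 0.28 in siGFP Bu and from -0.15 to -0.05 in siTGR5 Bu. Elongation and initiation factors, gathered after the values were seen, gave 17 of 28 lower and 0 higher (0 at an unadjusted p under 0.05 and 0 by DESeq2), among them Eif5a at -0.60 (adjusted p = 1.43e-06), Eef1a1 at -0.49 (adjusted p = 6.12e-05) and Eef2 at -0.36 (adjusted p = 2.20e-05) by edgeR. Ribosomal protein genes share reads with many processed pseudogenes, so their levels are uncertain, and 25 of 446 tested processed pseudogenes were lower and 5 higher.

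Measures of RNA composition gave no single picture. Of 29 nuclear-retained or intron-rich transcripts, 13 were higher and 4 lower, beside 13.8% and 16.5% of all tested genes. Their median was 0.09, and without the photoreceptor-bearing libraries 1 was lower. In DMSO 3 of 29 were higher and 9 lower, at a median of 0.05. Malat1, a long nuclear RNA, went from 330.3, 251, 302 and 423 CPM to 655, 419, 489.5 and 566 CPM, and only siTGR5 Bu replicate 2 fell inside the range of the siGFP libraries. Its change was 0.69 (SE 0.14, edgeR adjusted p = 0.00146). Neat1, the scaffold of paraspeckles, changed by 0.52 (SE 0.09, edgeR adjusted p = 0.000832) and the splicing-related Pnisr by 0.56 (SE 0.09, edgeR adjusted p = 0.000424). The summary score of this list overlapped between the groups, at -0.17 to 0.06 with siGFP and -0.10 to 0.06 with siTGR5. By transcript length the median log2 change went from -0.04 in the quintile of the shortest genes to 0.04 in that of the longest, and by GC content it stayed between -0.02 and 0.02 over the quintiles. Ribosomal protein transcripts had a median length of 638 bases against 1440.5 bases over all tested genes. The part of length or of nuclear RNA in the fall of the ribosomal protein genes was not tested.

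Calls among cell cycle genes differed in direction by phase. Of 52 tested replication and G1/S genes, 22 were lower and 5 higher at a median of -0.06, and the helicase subunit Mcm7 went from 178, 179, 172 and 169 CPM to 133, 141, 141 and 136 CPM, a change of -0.35 (SE 0.04, edgeR adjusted p = 2.12e-05). Mcm6 changed by -0.32, the cyclin-dependent kinase Cdk4 by -0.29 and its partner cyclin D1, encoded by Ccnd1, by -0.29, all called. Of 52 tested mitotic genes, 21 were higher, 1 was lower and 30 were not called, at a median of 0.12 and beside 13.8% higher and 16.5% lower over all tested genes. Incenp, of the chromosomal passenger complex, was at 158, 155, 159 and 157 CPM and then 178, 188, 198 and 189 CPM, without overlap and with a change of 0.25 (SE 0.04, edgeR adjusted p = 0.000477). Kif23, a motor of cytokinesis, changed by 0.26 (adjusted p = 0.000514), Hmmr by 0.30 (adjusted p = 0.000944) and the mitotic transcription factor Foxm1 by 0.24 (adjusted p = 0.000995), by edgeR. The 5 higher replication genes were 3 without siGFP Bu replicate 1 or siTGR5 Bu replicate 3 or 4. The count of higher mitotic genes dropped to 12 without siTGR5 Bu replicate 3 and to 11 without replicate 4. In DMSO the replication genes were lower in 28 of 52, whereas mitotic genes split into 7 higher and 6 lower. In the test of the difference edgeR called 0 mitotic genes, 19 had an unadjusted p under 0.05, all toward higher under Bu, and DESeq2 called 2.

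Of all lists, hypoxia targets and glycolytic enzymes held the most genes whose siRNA effect differed between the agents. Under Bu 16 of 35 tested members were higher and 1 lower, at a median of 0.11, beside 13.8% and 16.5% of all tested genes. In DMSO 1 was higher and 13 lower, at -0.09. The difference itself was called for 10 members, all toward higher under Bu, against 107 (0.724%) of 14783 genes in that direction, 96 (0.649%) in the other and 203 (1.37%) in all. The number of hypoxia genes ran from 5 to 14 when single libraries were left out, was 8 without the photoreceptor-bearing libraries, 18 by DESeq2 and 16 without a filter on low counts. Vegfa, the endothelial growth factor, was at 87.3, 90.9, 91.0 and 105 CPM in siGFP Bu and 117, 126, 115 and 131 CPM in siTGR5 Bu. In DMSO it was at 128, 136, 149, 122 and 134 CPM with siGFP and 126, 139, 128, 121 and 135 CPM with siTGR5. Only the siGFP Bu group stood low, and the log2 effect of siTGR5 differed between the agents by 0.43 (SE 0.08, edgeR adjusted p = 0.0102). P4ha2, a collagen prolyl hydroxylase, was also lowest in siGFP Bu, with 219.7 ± 11.6 CPM in siGFP Bu, 291 ± 16.4 CPM in siTGR5 Bu, 295 ± 11.1 CPM in siGFP DMSO and 302 ± 9.74 CPM in siTGR5 DMSO (SD, n = 4 or 5). Its difference was 0.37 (SE 0.06, edgeR adjusted p = 0.00227), while that of P4ha1, at 0.30 (adjusted p = 0.0184), was lost without siTGR5 Bu replicate 2, 3 or 4, up to an adjusted p of 0.0540. The oxygen sensor gene Egln3 rose under Bu by 0.30 (SE 0.05, edgeR adjusted p = 0.000687), and its difference was not called, at 0.30 (adjusted p = 0.0669).

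Among genes of protein folding and of amino acid stress, more members were called higher than lower with siTGR5 under Bu. Over all tested genes 13.8% were higher and 16.5% lower. Of 31 ER chaperone and unfolded protein response genes, 11 were higher and 2 lower, at a median of 0.05, and without the photoreceptor-bearing libraries neither of the 2 lower ones was called. The ER chaperone Hyou1 rose by 0.32 (SE 0.04, edgeR adjusted p = 4.44e-05), Derl2 by 0.28 (adjusted p = 0.000498), Pdia4 by 0.23 (adjusted p = 0.00076) and calreticulin, encoded by Calr, by 0.20 (adjusted p = 0.00193), by edgeR. In DMSO 2 of the list were higher and 5 lower. The difference was called for Hyou1, at 0.27 (adjusted p = 0.0046), and for Calr, at 0.21 (adjusted p = 0.0383), but without the photoreceptor-bearing libraries the adjusted p-values were 0.118 and 0.307, and Calr was lost in 11 of the 18 fits that left out 1 library. Of 41 genes of the ATF4 amino acid response, 10 were higher and 3 lower under Bu, against 2 and 15 in DMSO, and without siGFP Bu replicate 4 the Bu count rose to 16. Its members that rose included Ddit3, which encodes CHOP, by 0.32 (adjusted p = 0.000386) and Sesn2 by 0.24 (adjusted p = 0.000726), while Gdf15, a stress-induced cytokine, fell from 3.62 ± 0.817 CPM with siGFP to 2.00 ± 0.211 CPM with siTGR5 (SD, n = 4), a change of -0.84 (SE 0.16, edgeR adjusted p = 0.0013).

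Apoptosis and p53 genes were tested because Bu damages DNA. Of 37 p53 targets, 11 (29.7%) were lower and 6 (16.2%) higher with siTGR5. Of 30 BCL2 family and caspase genes 10 (33.3%) were lower and 3 (10%) higher. Over all tested genes 16.5% were lower and 13.8% higher. Perp, a p53-induced membrane protein linked to apoptosis, was at 117, 122, 113 and 111 CPM and then 93.0, 87.4, 86.6 and 90.5 CPM, a change of -0.38 (SE 0.04, edgeR adjusted p = 1.76e-05). Phlda3, a p53-induced inhibitor of AKT, changed by -0.54 (SE 0.07, edgeR adjusted p = 7.00e-05). Bbc3, which encodes the apoptotic activator PUMA, changed by -0.42 (SE 0.08, edgeR adjusted p = 0.0011) and the initiator caspase gene Casp2 by -0.31 (SE 0.05, edgeR adjusted p = 0.000514). Cdkn1a, the cell cycle inhibitor p21, was at 601, 613, 588 and 504 CPM and then 544, 477, 511 and 463 CPM, and the groups overlapped. Its change was -0.22 (SE 0.06, edgeR adjusted p = 0.016), was not called without siGFP Bu replicate 3 or siTGR5 Bu replicate 2 or 4 (0.0527 to 0.0604), and was -0.35 without the photoreceptor-bearing libraries. The pore-forming Bax, at -0.20 (adjusted p = 0.0204) by edgeR, lost its call without those libraries (-0.15, adjusted p = 0.115) and without siGFP Bu replicate 2 (0.0537) or siTGR5 Bu replicate 2 (0.0721). Among the p53 targets that rose, Mdm2, which marks p53 for degradation, went from 243, 243, 250.5 and 242 CPM to 297, 291, 299 and 316 CPM, a change of 0.29 (SE 0.04, edgeR adjusted p = 9.89e-05), and the death receptor Eda2r changed by 0.56 (SE 0.07, edgeR adjusted p = 5.74e-05). The survival genes Mcl1 and Bcl2l2 rose by 0.21 (adjusted p = 0.000866) and 0.34 (adjusted p = 0.00015) by edgeR. Without the photoreceptor-bearing libraries 3 of the BCL2 family and caspase genes were called lower in place of 10, and without siGFP Bu replicate 2 those called higher were 5 in place of 3. In DMSO 3 p53 targets were lower and 8 higher. The test of the difference called 0 p53 targets by edgeR and 2, both toward lower under Bu, by DESeq2, and at an unadjusted p under 0.05 there were 10 toward lower and 3 toward higher.

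DNA repair genes showed no single direction. Of 43 crosslink and double-strand break repair genes, 11 were higher and 6 lower, beside 13.8% and 16.5% of all tested genes. All changes lay between -0.30 and 0.30, and without the photoreceptor-bearing libraries 3 were lower. The nuclease gene Mre11a fell from 76.7 ± 2.54 CPM with siGFP to 62.6 ± 2.66 CPM with siTGR5 (SD, n = 4), a change of -0.30 (SE 0.04, edgeR adjusted p = 0.000175). Fancd2, the monoubiquitinated protein of the Fanconi pathway, changed by 0.25 (adjusted p = 0.00369) and the helicase gene Brip1 by 0.29 (adjusted p = 0.0021), by edgeR.

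Among antioxidant, lipid and lysosomal genes, more members were called lower than higher. Over all tested genes 16.5% were lower and 13.8% higher. The sterol and fatty acid synthesis list, at 20% lower, was near that share. Of 40 NRF2 targets and glutathione enzymes, 13 were lower and 1 higher, and without the photoreceptor-bearing libraries 8 were lower. Gsto1, a glutathione transferase, was at 157, 169.5, 139 and 147 CPM and then 95.7, 85.6, 92.6 and 88.4 CPM, a change of -0.77 (SE 0.06, edgeR adjusted p = 4.33e-07). Malic enzyme, encoded by Me1, changed by -0.47 (SE 0.05, edgeR adjusted p = 4.87e-06), the ferritin heavy chain gene Fth1 by -0.50 (SE 0.08, edgeR adjusted p = 0.000261) and Mgst3 by -0.57 (SE 0.09, edgeR adjusted p = 0.000344). Of 40 sterol and fatty acid synthesis genes, 8 were lower and 0 higher (0 at an unadjusted p under 0.05 and 0 by DESeq2), among them the desaturase gene Scd1 at -0.46 (SE 0.06, edgeR adjusted p = 9.52e-05) and Pmvk, of the mevalonate pathway, at -0.33 (SE 0.04, edgeR adjusted p = 8.31e-05). That count was 14 without siGFP Bu replicate 2 and stood at 24 of 40 in DMSO. Of 40 lysosome and autophagy genes, 10 were lower and 3 higher, and both genes of lysosomal cholesterol export fell, Npc1 from 108 ± 2.93 CPM with siGFP to 75.6 ± 2.60 CPM with siTGR5 (SD, n = 4) with a log2 change of -0.53 (SE 0.04, edgeR adjusted p = 8.66e-07), and Npc2 with one of -0.45 (SE 0.04, edgeR adjusted p = 5.36e-06).

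Genes that double-stranded RNA can induce were examined because both arms received an siRNA. Of 45 interferon response and RNA sensing genes, 11 were higher and 4 lower with siTGR5, at a median of 0.13. In DMSO 9 were higher and 1 lower at 0.15. Over all tested genes under Bu 13.8% were higher and 16.5% lower. Irf1, a transcription factor of the interferon response, changed by 0.24 (SE 0.04, edgeR adjusted p = 0.000397), whereas the nuclease gene Isg20 changed by -0.35 (SE 0.05, edgeR adjusted p = 0.000197). The 4 lower members became 1 without the photoreceptor-bearing libraries or when siGFP Bu replicate 4 or siTGR5 Bu replicate 1, 3 or 4 was left out, and 2 without siGFP Bu replicate 1 or 3. In the NF-kB list 7 of 29 were higher and 4 lower, and 4 were higher without the photoreceptor-bearing libraries. The list held the adhesion molecule Vcam1 at -0.55 (SE 0.05, edgeR adjusted p = 4.92e-06), Tnfaip2 at -0.28 (adjusted p = 0.000101) and the macrophage growth factor Csf1 at 0.37 (adjusted p = 1.11e-05). Of 16 RNA interference genes 2 were higher and 3 lower, near the shares of all tested genes. All changes lay between -0.18 and 0.22, and 0 to 4 were called higher when single libraries were left out. The 3 lower ones became 1 without siGFP Bu replicate 1 or 3 or siTGR5 Bu replicate 2 or 3 and 0 without siTGR5 Bu replicate 4, and the 2 higher ones were not called without the photoreceptor-bearing libraries.

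Matrix and TGF-beta genes moved both ways, and over all tested genes 13.8% were higher and 16.5% lower. Of 44 matrix genes 12 were higher and 7 lower, and of 40 TGF-beta, activin and SMAD genes 9 were higher and 9 lower, the former being 4 without the photoreceptor-bearing libraries. The matrix glycoprotein Sparc rose by 0.36 (SE 0.04, edgeR adjusted p = 3.84e-05), thrombospondin, encoded by Thbs1, by 0.56 (SE 0.08, edgeR adjusted p = 8.55e-05) and the basement membrane protein Nid2 by 0.52 (SE 0.07, edgeR adjusted p = 8.07e-05). Inhba, the activin A subunit, rose by 0.59 (SE 0.08, edgeR adjusted p = 5.07e-05) and Ctgf by 0.42 (SE 0.07, edgeR adjusted p = 0.000344), while Ltbp1 changed by -0.62 (SE 0.08, edgeR adjusted p = 5.21e-05). Contractile genes, gathered after Acta2 was seen, gave 10 of 19 lower and 3 higher, with Tagln, which encodes transgelin, going from 2.25 ± 0.373 CPM with siGFP to 1.40 ± 0.236 CPM with siTGR5 (SD, n = 4) at -0.72 (adjusted p = 0.00554) by edgeR. Without the photoreceptor-bearing libraries 5 of them were lower, and Tagln lost its call (-0.49, adjusted p = 0.158), and without siTGR5 Bu replicate 4 the lower ones were 6.

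Of 20 tested spermatogonial and germ cell markers 4 were higher and 2 lower, beside 13.8% and 16.5% of all tested genes, and their log2 changes ran from -0.29 to 0.64. Fgfr2 and Fgfr3, receptors for fibroblast growth factors, rose by 0.36 (adjusted p = 0.00194) and 0.36 (adjusted p = 0.00278), the histone methyltransferase gene Ehmt2, also called G9a, by 0.15 (adjusted p = 0.00938), and the tetraspanin gene Cd9 changed by -0.29 (adjusted p = 0.000135), by edgeR. Without the photoreceptor-bearing libraries the calls of Fgfr3 (0.37, adjusted p = 0.0536) and Ehmt2 (0.14, adjusted p = 0.0787) were lost, and 1 marker was higher. Gfra1, the receptor for the niche factor GDNF, was at 21.2, 20.6, 20.2 and 20.5 CPM and then 21.9, 20.2, 19.4 and 17.7 CPM, which overlapped, at -0.07 (SE 0.07, edgeR adjusted p = 0.471). Of 12 Sertoli cell markers 2 were higher and 2 lower, and 0 were called without the photoreceptor-bearing libraries. Of 5 Leydig cell markers edgeR called 1 lower, and it was not called by DESeq2 or without the photoreceptor-bearing libraries. Of 15 photoreceptor markers edgeR and DESeq2 called 0, 1 had an unadjusted p under 0.05, and edgeR called 4 lower without siGFP Bu replicate 1. The genes that the study's own text discusses included Ckmt1, mitochondrial creatine kinase, which went from 2.02, 1.96, 2.16 and 1.48 CPM to 4.03, 4.29, 5.45 and 4.43 CPM, a change of 1.24 (SE 0.14, edgeR adjusted p = 1.82e-05). In DMSO Ckmt1 was at 2.96 ± 0.344 CPM with siGFP and 4.72 ± 0.487 CPM with siTGR5 (SD, n = 5). Of 17 tested genes from that text 4 were higher and 5 lower (2 and 2 without the photoreceptor-bearing libraries, and 3 lower without siGFP Bu replicate 2 or 3 or siTGR5 Bu replicate 4), among them Mmp24 at -0.39 (adjusted p = 0.00854), Sod2 at -0.16 (adjusted p = 0.0308) and E2f6 at 0.19 (adjusted p = 0.0324) by edgeR. Mmp24 (-0.40, adjusted p = 0.0684), Sod2 (-0.12, adjusted p = 0.315) and E2f6 (0.23, adjusted p = 0.106) were not called without the photoreceptor-bearing libraries, and Sod2 lost its call in 5 and E2f6 in 4 of the 8 fits that left out 1 library.

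A limited set of genes responded to the siRNA differently in the 2 agents. The clearest was mt-Nd6 (ENSMUSG00000064368, chrMT:13552-14070), a subunit of respiratory complex I and the only protein encoded on the light strand of mitochondrial DNA. Under Bu it was at 86.5, 73.1, 62.9 and 93.3 CPM with siGFP and 122, 128, 112 and 109 CPM with siTGR5, a change of 0.57 (SE 0.09, edgeR adjusted p = 0.000378). In DMSO it was at 129, 87.8, 152, 160.2 and 162 CPM with siGFP and 42.7, 34.7, 26.0, 36.0 and 33.9 CPM with siTGR5, a change of -2.01 (SE 0.14, edgeR adjusted p = 4.67e-08). The siRNA effect thus had opposite signs, every library of one group lying outside the range of the other in both agents, and the difference was 2.58 (SE 0.20, edgeR adjusted p = 1.03e-07). It was called under all 24 alternatives, with the smallest log2 difference at 2.48. mt-Nd6 overlaps mt-Nd5 on the opposite strand, and the strand setting of the counting is not given in the sources used here. Whether its counts in these poly(A) libraries followed the transcript or the library preparation was not tested. mt-Nd5 changed by 0.30 (SE 0.06, edgeR adjusted p = 0.00216) under Bu and by 0.05 (adjusted p = 0.529) in DMSO, and of the other 7 tested mitochondrial genes edgeR and DESeq2 called 0 under Bu, with 0 at an unadjusted p under 0.05, but edgeR called 2 lower without siGFP Bu replicate 2.

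In Adgrg1 and Nid2, as in Vegfa, siGFP Bu was the lowest group. Adgrg1, an adhesion G protein-coupled receptor, was at 25.4, 25.6, 25.4 and 23.3 CPM in siGFP Bu and 43.7, 46.5, 43.2 and 40.7 CPM in siTGR5 Bu, and at 39.6 ± 1.41 CPM and 48.0 ± 0.518 CPM in DMSO (SD, n = 5), with a difference of 0.53 (SE 0.06, edgeR adjusted p = 4.57e-05). Nid2 was at 25.6 ± 2.56 CPM in siGFP Bu, 37.1 ± 2.39 CPM in siTGR5 Bu, 37.5 ± 1.27 CPM in siGFP DMSO and 37.4 ± 1.34 CPM in siTGR5 DMSO, with a difference of 0.53 (SE 0.08, edgeR adjusted p = 0.00161). In the other direction Ghr, the growth hormone receptor, was at 217 ± 9.01 CPM in siGFP Bu, 157 ± 2.60 CPM in siTGR5 Bu, 189 ± 9.87 CPM in siGFP DMSO and 179.7 ± 9.96 CPM in siTGR5 DMSO, with a difference of -0.39 (SE 0.06, edgeR adjusted p = 0.00192). Here siTGR5 Bu was the lowest group. The follistatin-like gene Fstl1 differed by -0.29 (adjusted p = 0.00161) and Cdk14 by -0.44 (adjusted p = 0.0046), and both held under all 24 alternatives. Aldehyde oxidase, encoded by Aox1, differed by 0.43 (adjusted p = 0.00161) and Fam172a by -0.39 (adjusted p = 0.00227), and both were lost without the photoreceptor-bearing libraries (0.0834 and 0.0550).

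**Figure D5:**
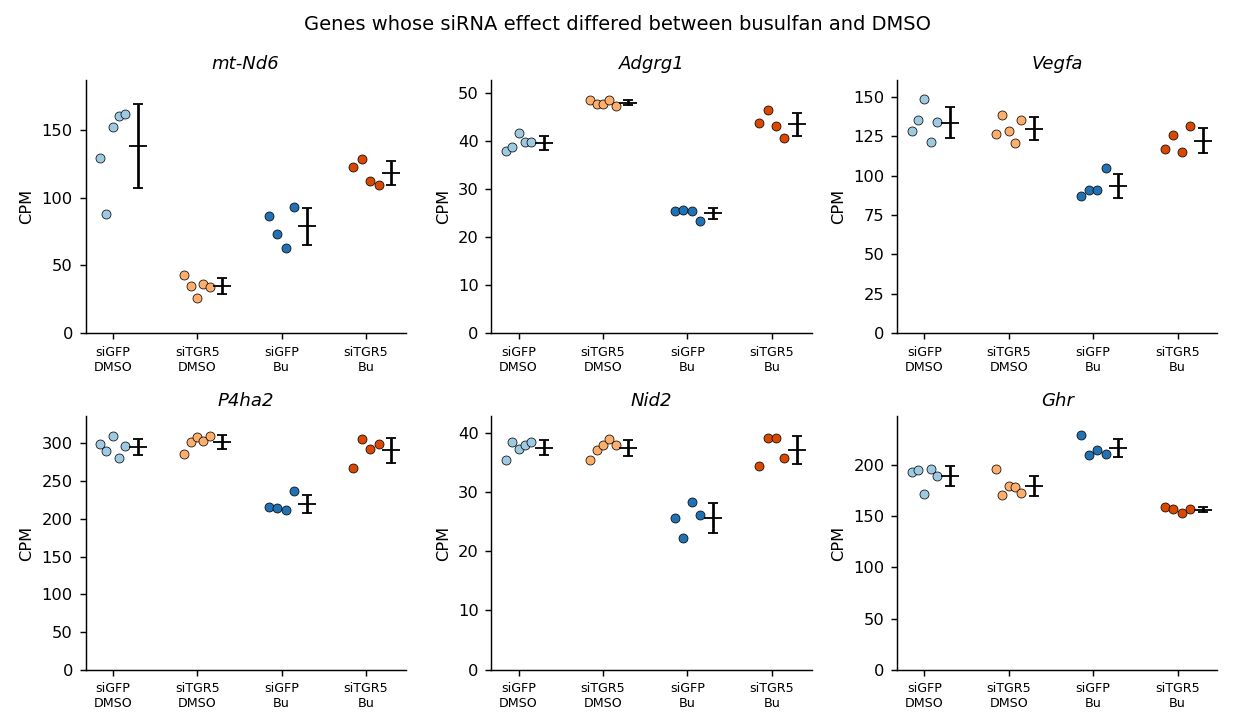
Levels in CPM (y axis, from 0) of 6 genes in the 18 libraries by siRNA and agent (x axis). Points are libraries and bars the mean ± SD (n = 5 in DMSO, n = 4 under Bu). mt-Nd6 falls with siTGR5 in DMSO and rises under Bu, Adgrg1, Vegfa, P4ha2 and Nid2 are lowest in siGFP Bu, and Ghr is lowest in siTGR5 Bu.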

How the data were processed

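The members and gene lists were chosen with earlier results of these data known. Per the submitters' processing notes, bcl2fastq 2.17.1.14, TopHat2, Bowtie2 2.1.0, HTSeq and DESeq2 1.0.19 were used on mm10, while the study's methods name Hisat2, so the aligner is uncertain. Only uniquely aligned 50 b reads were kept, which lowers genes with near-identical copies. The deposited table holds raw read counts per gene made by the authors for 18 libraries, and these counts were the values analysed. Its 36 per-sample columns of normalized signal, and the columns of the authors' own comparisons (fold changes and p-values), were not used.

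Genes were kept by filterByExpr (minimum count 10, minimum total 15), scaled by TMM and tested in R 4.3.3 with the quasi-likelihood F-test of edgeR 4.0.16, with Benjamini-Hochberg adjustment over all tested genes. The Bu and DMSO contrasts were fitted on their own libraries and their difference on all 18. Levels are CPM (counts scaled to a common total) from TMM over the 18 libraries. Total counts per library were 24745523 to 49638166. Pairs of libraries of the same group differed by more than sampling noise (chi-square per degree of freedom 2.92 to 17.7 over 32 pairs). Named genes were Gpbar1, the 10 per direction with the smallest p, the 10 per direction with the largest change at 1 CPM or more and no overlap, the 10 per direction called in both agents, the 5 per direction that differed most between agents, up to 4 members of each of 28 lists with the smallest p, and the genes of the study's text, except some that are not reported here. A further 4 lists (metallothioneins and zinc carriers, contractile genes, translation factors and the Ly6 family) and Nr4a3, Malat1, Neat1, Pnisr and some list members were chosen after their values were seen. In the Ly6 family, 1 of 6 tested genes was higher and 2 lower, beside 13.8% and 16.5% of all tested genes. The tests were repeated with DESeq2 1.42.0, with RLE factors in place of TMM, without the count filter, with a mean of at least 1 CPM required, with the replicate number as a block, with all 18 libraries in 1 fit, leaving out each library, and leaving out those with a photoreceptor sum above 5 CPM. The scripts were tested on simulated data. Promoters are from RefSeq (GRCm38.p6), matched by symbol for 10150 tested genes.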

Additional observations from a re-analysis of the deposited data

Results flagged for a closer look

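In 14 of 278 gene and group combinations, 1 library lay apart from the other libraries of its group by Dixon's ratio, the gap to the nearest library over the range of the group, above 0.829 for 4 libraries. Chance flags about 1 in 20 such groups, so this number is near that share. In siGFP Bu replicate 2 this was F2r at 171 CPM against 183 to 185 CPM (ratio 0.871), Hmmr at 166 CPM against 188 to 190.1 CPM (ratio 0.903), mt-Nd5 at 1113 CPM against 1344 to 1384 CPM (ratio 0.853) and Pde4b at 9.24 CPM against 11.2 to 11.3 CPM (ratio 0.953). In siGFP Bu replicate 3 this was Lyz2 at 0.183 CPM against 0.365 to 0.401 CPM (ratio 0.837) and Mdm2 at 250.5 CPM against 242 to 243 CPM (ratio 0.877). In siGFP Bu replicate 4 this was Tspan14 at 29.8 CPM against 31.3 to 31.6 CPM (ratio 0.847), Adgrg1 at 23.3 CPM against 25.4 to 25.6 CPM (ratio 0.882), P4ha2 at 237 CPM against 212 to 215 CPM (ratio 0.874), Tagln at 2.81 CPM against 2.02 to 2.13 CPM (ratio 0.862) and Pnisr at 42.9 CPM against 31.4 to 32.1 CPM (ratio 0.940). In siTGR5 Bu replicate 1 this was P4ha1 at 140.1 CPM against 163 to 167 CPM (ratio 0.845). In siTGR5 Bu replicate 2 this was Wnt9a at 133 CPM against 122 to 123 CPM (ratio 0.851) and Cdk4 at 447 CPM against 479 to 482 CPM (ratio 0.900).

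Of the named genes, 27 had an siRNA effect that differed between Bu and DMSO by edgeR's test of the difference (adjusted p under 0.05). Among all 14783 genes in that test, 203 (1.37%) differed. Some genes were named because they differed most in this same test. The 27, and the numbers below that kept their call, therefore follow partly from that choice. The log2 effect was higher under Bu for Rhbdl3 (0.21), Fgf18 (0.32), Adgrg1 (0.53), Il33 (0.47), Adcy1 (0.88), P4ha2 (0.37), P4ha1 (0.30), Vegfa (0.43), Hyou1 (0.27), Calr (0.21), Csf1 (0.27), Nid2 (0.53), mt-Nd6 (2.58), Aox1 (0.43), Egr1 (0.35) and Pde4b (0.49). It was lower under Bu for Ank (-0.41), Ltbp2 (-0.85), Npy4r (-1.23), Col14a1 (-0.94), Slc39a10 (-0.39), Rps20 (-0.28), Gsto1 (-0.32), Ghr (-0.39), Fstl1 (-0.29), Fam172a (-0.39) and Cdk14 (-0.44). Without the photoreceptor-bearing libraries 13 of the 27 were called, and 20 were called in every fit that left out 1 library, the exceptions being Ltbp2, Fgf18, Il33, Slc39a10, P4ha1, Calr and Egr1. The cause of the difference was not tested.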

How the results depend on the processing

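Over 136 named genes and 15 alternatives, 2038 recomputed values under Bu gave 0 reversed directions, 26 lost calls and 2 gained calls. Without the photoreceptor-bearing libraries 2566 genes were called under Bu, 1191 higher and 1375 lower, a fit with 2 libraries a side. When single libraries were left out, the Bu count ran from 3125 to 4128 (1401 to 1961 higher and 1724 to 2167 lower), and the DMSO count from 3407 to 4366 (1642 to 2132 higher and 1757 to 2234 lower). The other alternatives gave 4081 to 4994 calls under Bu.

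The number of genes whose effect differed between the agents was less stable than either contrast. It was 388 by DESeq2 (175 higher and 213 lower), 411 without a filter on low counts (247 and 164) and 47 without the photoreceptor-bearing libraries (29 and 18), of which 41 were among the 203. Leaving out single libraries gave 87 to 270 (45 to 146 higher and 38 to 138 lower), with the lowest count without siTGR5 Bu replicate 2. The cause was not tested. All 203 kept their direction without the photoreceptor-bearing libraries. Of 27 named genes in this set, some of them named for this difference, 11 were called under all 24 alternatives.

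The deviations of same-numbered Bu libraries correlated at -0.10, -0.02, -0.07 and 0.20. Libraries of different numbers and those in DMSO were not compared, so these values cannot decide whether replicate numbers paired the libraries. The replicate block gave 4225 calls under Bu, 4493 in DMSO and 265 for the difference, against 4231, 4039 and 203 without it. Of the 265, 16 were hypoxia and glycolysis genes toward higher under Bu. Gpbar1 was at -0.65 to -0.20 when single Bu libraries were left out and was called in none of these fits. At 8 to 17 counts per Bu library, depth limits what can be said of it.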
